A study of Homo sapiens with 6 samples.

Results

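The ATP-binding cassette (ABC) transporters of Huh7-R cells were compared between fostamatinib and DMSO treatment. Members were taken by gene symbol, as ABC followed by a letter from A to G and a number, with CFTR added and pseudogenes and antisense genes left out. Of the 16305 genes measured, 33 were members. A reference gene table names 46 genes of this kind, and the other 13 were not analysed here (ABCA8, ABCA9, ABCA13, ABCB5, ABCB11, ABCC8, ABCC9, ABCC12, ABCD2, ABCG1, ABCG4, ABCG5 and ABCG8). Huh7 is a human hepatocellular carcinoma (HCC) line, and Huh7-R (Huh7SR in the sample labels) is the pool of sorafenib-resistant cells obtained from it by long exposure to sorafenib, a kinase inhibitor used in advanced HCC. Fostamatinib, a drug given against spleen tyrosine kinase, was applied to 3 samples at 2 µM for 24 h, and 3 samples received DMSO, the vehicle, for the same time, with the dose of 2 µM also written for DMSO. All 6 samples were therefore the same resistant cells, without parental Huh7 cells beside them, and per the study's methods sorafenib was removed from resistant cells some days before experiments. Whether the triplicates were separate cultures on separate days is not stated, so the p-values measure the spread between these samples, which may be technical.

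ABC proteins use ATP to move substrates across membranes. In hepatocytes, the canalicular members secrete bile salts, phospholipid, sterols and conjugated drugs into bile, the basolateral ABCC members return conjugates and bile acids to the blood, and the ABCA members load cholesterol and phospholipid onto lipoproteins or move lipids inside the cell. ABCB1, ABCC1 and ABCG2 are also known for pumping chemotherapy drugs and kinase inhibitors out of tumour cells. The ABCE and ABCF members have no membrane domain and work with ribosomes.

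Expression was measured by RNA-seq of poly(A) RNA and is given as log2 CPM, the log2 of the read count scaled to a common library size. Reads on the listed genes numbered 13303451 to 15272737 per sample. Replicates correlated with each other at Pearson's r of 0.988 to 0.989 across genes, which are not independent replicates, and samples of different treatments at 0.970 to 0.972. The 8 hepatocyte markers examined (ALB, APOA1, APOB, TTR, SERPINA1, TF, FGB and AFP) were all expressed. All 8 were called higher with fostamatinib, beside 23.3% of all genes, by 0.21 (APOB) to 3.19 (APOA1) on the log2 scale. Their summed level was 4895 to 5235 CPM with DMSO and 6541 to 6950 CPM with fostamatinib. Of the 3 stromal markers 2 were called higher (beside 23.3% of all genes), with a sum of 147.7 to 152.8 CPM and then 191.2 to 198.3 CPM. PECAM1, the endothelial marker measured, rose by 0.51 from 6.10 to 6.93 CPM to 8.72 to 9.89 CPM. LYZ, the leukocyte marker measured, was at 9.30 to 10.8 CPM and 9.31 to 11.2 CPM, while PTPRC, CD3E, VWF and CDH5 were not analysed here. The part of these marker levels in the ABC results was not tested. In RNA from whole cultures, fewer cells of a type and less RNA per cell cannot be told apart.

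Fostamatinib moved the family in both directions. Called means an adjusted p-value under 0.05 in limma, fitted on all genes with Benjamini-Hochberg adjustment. Of the 33 members, 13 were called higher (39.4%) and 6 lower (18.2%), beside 23.3% and 24.5% of all genes, and 14 were not called. Together 57.6% of the members were called, against 47.8% of all genes. In 23 members (69.7%) the fostamatinib samples did not overlap the DMSO samples, with 15 all higher and 8 all lower, where the share among all genes was 54.1%. The median log2 fold change was 0.21 over the members and 0.0015 over all genes. Of the members, 31 passed the authors' read filter in both groups, and among these 12 were called higher and 5 lower. A fit to the 15126 genes that passed in both groups gave the same member counts. Of all genes in that fit, 3637 were called higher and 3899 lower. ABCA12 had passed it through the DMSO samples alone and ABCA6 through the fostamatinib samples alone, so the filter itself favoured a difference in those 2. Of the 23 members with a mean of at least 50 reads in a group, 11 were called higher and 5 lower, and of the 10 members with fewer reads, 2 and 1. The share of all genes called at either depth was not computed, so these counts have no matching background.

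The largest rises among the members with at least 50 reads belonged to ABCC6, with a log2 fold change of 1.16 (SE 0.057), and to ABCC2, with 0.86 (SE 0.061). The largest falls were those of ABCB1, at -0.87 (SE 0.129), and ABCE1, at -0.67 (SE 0.049).

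**Figure D1:**
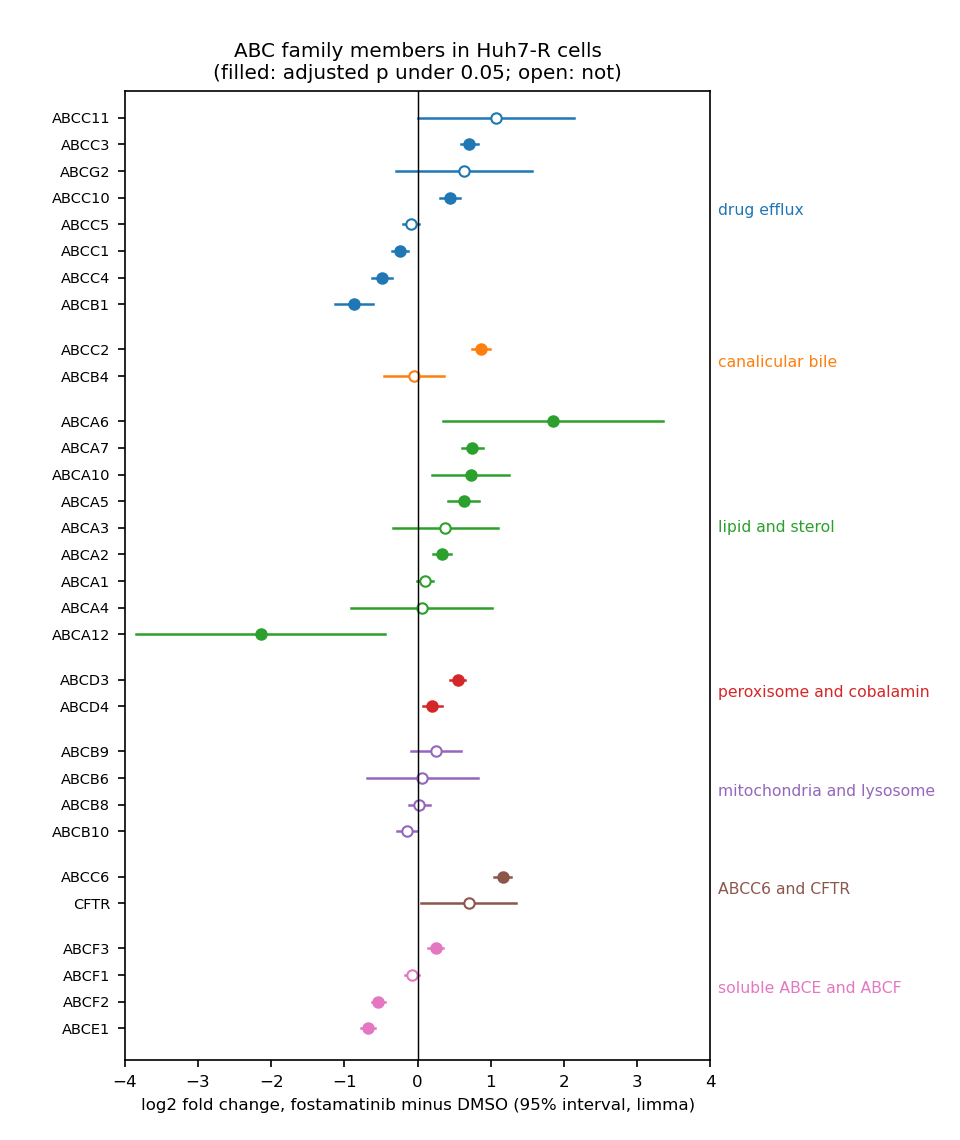
Log2 fold change of 31 ABC members (fostamatinib minus DMSO, x axis), grouped by role. Lines are 95% confidence intervals from limma with 3 samples per group, and filled points have an adjusted p-value under 0.05. Filled points lie on both sides of 0 among the drug efflux members, while ABCD3 and ABCD4 lie above 0; the widest intervals belong to ABCA6 and ABCA12, which had few reads.

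Promoter sequence was read from RefSeq (GRCh38.p14), in windows from 250 bases before to 50 bases after each start, and 27 of the 33 members matched, with 41 windows. The 250 bases before the start are printed 5′ to 3′ on the gene's strand for ABCC6 and ABCC2, which rose most among the members with at least 50 reads, and for ABCB1, ABCE1 and ABCC4, a ribosome factor and a pair of efflux pumps that fell. Capitals mark GCGTG (the core of the site bound by the aryl hydrocarbon receptor), CCAAT (the CCAAT box) and AGGTCA (the core of nuclear receptor sites) on either strand, so that CACGC and ATTGG are matches on the other strand. RefSeq gives 2 starts for ABCB1 and 2 for ABCC6: the downstream start of ABCB1 and the upstream start of ABCC6 are shown.
ABCC6, chr16:16223495-16223744, minus strand: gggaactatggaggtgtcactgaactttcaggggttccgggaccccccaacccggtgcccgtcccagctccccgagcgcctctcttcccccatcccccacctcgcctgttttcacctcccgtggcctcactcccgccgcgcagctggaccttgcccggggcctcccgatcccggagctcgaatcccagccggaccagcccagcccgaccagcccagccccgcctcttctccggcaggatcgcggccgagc
ABCC2, chr10:99782390-99782639, plus strand: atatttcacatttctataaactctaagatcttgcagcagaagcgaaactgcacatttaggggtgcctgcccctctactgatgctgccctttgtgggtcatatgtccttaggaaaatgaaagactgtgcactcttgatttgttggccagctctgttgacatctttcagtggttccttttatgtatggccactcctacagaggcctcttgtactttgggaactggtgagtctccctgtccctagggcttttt
ABCB1, chr7:87600885-87601134, minus strand: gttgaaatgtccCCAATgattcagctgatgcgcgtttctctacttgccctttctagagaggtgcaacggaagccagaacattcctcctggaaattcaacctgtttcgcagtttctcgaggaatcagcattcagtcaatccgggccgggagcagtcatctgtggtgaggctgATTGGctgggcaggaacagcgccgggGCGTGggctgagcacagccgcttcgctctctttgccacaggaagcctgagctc
ABCC4, chr13:95301452-95301701, minus strand: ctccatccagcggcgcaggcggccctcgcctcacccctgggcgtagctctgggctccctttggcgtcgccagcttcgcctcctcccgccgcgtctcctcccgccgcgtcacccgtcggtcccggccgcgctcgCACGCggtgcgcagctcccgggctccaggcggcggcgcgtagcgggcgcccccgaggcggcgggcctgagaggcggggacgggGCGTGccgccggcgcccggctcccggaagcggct
ABCE1, chr4:145098061-145098310, plus strand: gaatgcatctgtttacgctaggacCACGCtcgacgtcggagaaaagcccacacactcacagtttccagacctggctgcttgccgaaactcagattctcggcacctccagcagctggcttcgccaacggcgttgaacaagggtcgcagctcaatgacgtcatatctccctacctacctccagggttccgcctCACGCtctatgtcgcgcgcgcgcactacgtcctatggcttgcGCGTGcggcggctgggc

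None of the 3 motifs occurred in the printed bases of ABCC6 or ABCC2. ABCB1 held GCGTG 53 bases before its start and CCAAT 238 bases before it and, on the other strand, 79 bases before it. ABCC4 held 2 matches to GCGTG, at 117 and 34 bases before the start, and ABCE1 held 3, at 226, 59 and 17 bases before it. The printed stretches also differed in base composition, with G and C making up 45.6% of ABCC2, 55.6% of ABCB1, 60.0% of ABCE1, 70.8% of ABCC6 and 80.4% of ABCC4. Over whole windows of 300 bases, GCGTG was in 53.7% of the family's windows and 36.5% of the 35116 windows of all genes. It was found in 6 of 11 members called higher, 4 of 5 called lower and 7 of 11 not called. CCAAT was in 24.4% of the family's windows (34.6% of all), AGGTCA in 9.8% (13.8% of all), the GC box GGGCGG in 51.2% (45.0% of all) and the E-box CACGTG in 19.5% (7.3% of all). Both strands were searched for each motif, matches of different motifs may share bases, and a match describes the letters alone.

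Among the drug efflux members, changes went in both directions, as they did over all genes. Of 8 measured, ABCC3 and ABCC10 rose (25.0%, beside 23.3% of all genes), ABCB1, ABCC4 and ABCC1 fell (37.5%, beside 24.5%), and ABCC5, ABCC11 and ABCG2 were not called. With 8 members, these shares are near those of all genes. Their median log2 fold change was 0.17.

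ABCB1 (ENSG00000085563, chr7:87132333-87342639 on GRCh37, minus strand) encodes P-glycoprotein, the classical multidrug efflux pump. It was at 3.45, 3.64 and 3.25 log2 CPM in the DMSO samples and at 2.73, 2.55 and 2.45 log2 CPM in the fostamatinib samples. The groups did not overlap, and every fostamatinib sample was lower. Mean reads were 160.3 and 82.0, and the level scaled to library size fell by 1.83-fold (log2 fold change -0.87, SE 0.129, limma adjusted p = 6.69e-07).

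ABCC4 (ENSG00000125257, chr13:95672089-95953729, minus strand) encodes MRP4, which exports cyclic nucleotides, nucleoside drugs and bile acids across the basolateral membrane. Its levels were 5.21, 5.27 and 5.33 log2 CPM with DMSO and 4.86, 4.80 and 4.70 log2 CPM with fostamatinib. All fostamatinib samples were again lower, by 1.40-fold on average (-0.49, SE 0.068, limma adjusted p = 2.38e-07). ABCC1 (ENSG00000103222, chr16:16042995-16237114, plus strand), or MRP1, an exporter of glutathione conjugates and anticancer drugs, had 6.03, 6.08 and 6.11 log2 CPM against 5.86, 5.81 and 5.82 log2 CPM. This was a smaller fall without overlap, by 1.18-fold (-0.24, SE 0.053, limma adjusted p = 2.39e-04).

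ABCC3 (ENSG00000108846, chr17:48712138-48769614, plus strand) moved the other way. It encodes MRP3, which returns glucuronides and bile acids from hepatocytes to the blood. DMSO samples had 6.25, 6.08 and 6.06 log2 CPM and fostamatinib samples 6.78, 6.80 and 6.94 log2 CPM. Every fostamatinib sample was above every DMSO sample, and the rise was 1.63-fold (0.71, SE 0.054, limma adjusted p = 2.50e-13). ABCC10, or MRP7, a pump able to carry taxanes, rose by 0.44 (limma adjusted p = 1.32e-06).

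ABCG2 (ENSG00000118777, chr4:89011302-89152780, minus strand), the breast cancer resistance protein, had few reads, with 4, 7 and 7 under DMSO and 6, 11 and 10 reads under fostamatinib. The groups overlapped, and the log2 fold change of 0.63 had a 95% interval from -0.29 to 1.56 (limma adjusted p = 0.265), so a difference was not detectable at this depth. ABCC11, or MRP8, had 5, 5 and 2 reads and then 6, 8 and 10 reads, all higher, with a log2 fold change of 1.07 that was not called (limma adjusted p = 0.0922). ABCC5, or MRP5, an exporter of cyclic nucleotides, was well expressed at a mean of 912.0 reads with DMSO. All its fostamatinib samples were lower, but the log2 fold change of -0.09 did not pass the test (limma adjusted p = 0.154).

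**Figure D2:**
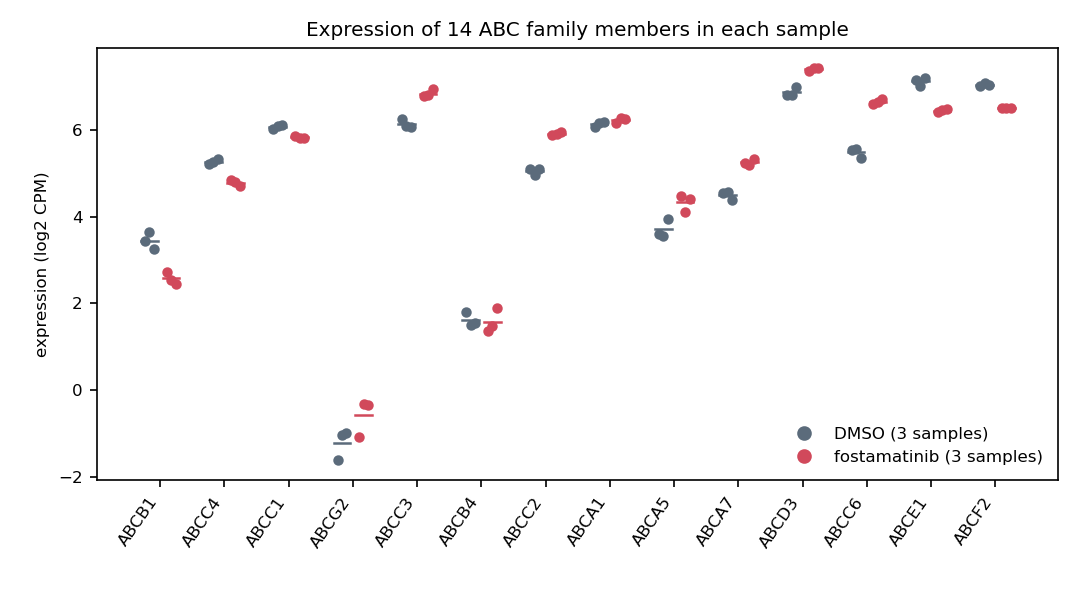
Expression (log2 CPM, y axis) of 14 ABC members in each of the 3 DMSO and 3 fostamatinib samples; horizontal lines are group means. ABCB1, ABCC4 and ABCC1 are lower and ABCC3, ABCC2 and ABCC6 higher in every fostamatinib sample, while the groups overlap for ABCG2, ABCB4 and ABCA1.

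Members were placed in 1 role each, with ABCB1 and ABCG2 under drug efflux, so the bile group need not hold every exporter into bile. Of the 5 genes in the bile group, 2 were measured, and 1 of them was called higher, beside 23.3% of all genes. A group of 2 is too small to be set apart from that share. ABCC2 (ENSG00000023839, chr10:101542397-101612351, plus strand) encodes MRP2, the canalicular exporter of bilirubin glucuronides and drug conjugates. Its values were 5.10, 4.96 and 5.10 log2 CPM with DMSO and 5.89, 5.90 and 5.95 log2 CPM with fostamatinib. The fostamatinib samples were all higher and lay close together, 1.82-fold above DMSO (0.86, SE 0.061, limma adjusted p = 2.82e-14).

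ABCB4 (ENSG00000005471, chr7:87031012-87109751, minus strand), or MDR3, the flippase that supplies phosphatidylcholine to bile, stood at 1.82, 1.51 and 1.55 log2 CPM and then 1.37, 1.47 and 1.90 log2 CPM. Both groups covered the same range. The log2 fold change was -0.05 with a 95% interval from -0.46 to 0.36 (limma adjusted p = 0.873), at mean reads of 44.7 and 41.0. ABCB4 lies 22.6 kb from ABCB1 on chromosome 7, and 1.5% of the 50-base stretches of its transcripts also occur in ABCB1.

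Among the lipid and sterol members, 9 of 14 were measured, 5 were called higher (ABCA7, ABCA5, ABCA2, ABCA10 and ABCA6) and 1 lower (ABCA12), or 55.6% and 11.1% beside 23.3% and 24.5% of all genes, with a median log2 fold change of 0.38. Without ABCA6 and ABCA12, which passed the read filter through 1 group alone, the counts were 4 and 0. ABCA1 (ENSG00000165029, chr9:107543287-107690436, minus strand), the exporter of cholesterol and phospholipid to apolipoprotein A-I, was the best expressed of them. It had 6.06, 6.17 and 6.17 log2 CPM with DMSO and 6.17, 6.28 and 6.26 log2 CPM with fostamatinib, and the groups overlapped. Its log2 fold change of 0.10 had a 95% interval from -0.0046 to 0.21 and was not called (limma adjusted p = 0.110).

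ABCA7 (ENSG00000064687, chr19:1039996-1065571, plus strand), a close relative of ABCA1 that moves phospholipid and is known from Alzheimer's disease genetics, had 4.54, 4.57 and 4.39 log2 CPM with DMSO and 5.24, 5.19 and 5.32 log2 CPM with fostamatinib. The groups were well apart, 1.68-fold (0.75, SE 0.072, limma adjusted p = 6.53e-11). ABCA5 (ENSG00000154265, chr17:67240452-67323385, minus strand), a member of endosomal and lysosomal membranes, had 3.61, 3.56 and 3.96 log2 CPM and then 4.48, 4.12 and 4.41 log2 CPM. Fostamatinib samples were all higher, although DMSO replicate 3 came close to fostamatinib replicate 2 (0.63, SE 0.104, limma adjusted p = 4.51e-06). ABCA2, an endolysosomal member abundant in myelinating cells, rose by 0.34 (limma adjusted p = 1.80e-05).

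The other lipid members had few reads. ABCA10 had 23, 15 and 30 reads with DMSO and 36, 37 and 30 reads with fostamatinib (log2 fold change 0.73, limma adjusted p = 0.0200). ABCA6 had 5, 2 and 0 reads and then 6, 7 and 5 reads (1.85, limma adjusted p = 0.0381), and a ratio of summed reads of 2.74 with a 95% counting interval from 1.09 to 7.75. ABCA12, a lipid transporter of keratinocytes, had 2, 8 and 5 reads and then 0, 1 and 1 reads (-2.14, limma adjusted p = 0.0338), with a ratio of 0.142 and an interval from 0.0157 to 0.610. These intervals are exact, cover counting error alone and rest on a handful of reads per sample. ABCA6 and ABCA12 also passed the read filter through 1 group alone. Their p-values and intervals do not allow for that selection and are not evidence of a difference. The calls also rested on single samples: the adjusted p-value was 0.174 for ABCA10 without DMSO replicate 2, 0.0607 without fostamatinib replicate 1 and 0.0629 without fostamatinib replicate 2. For ABCA6 it was 0.264 without DMSO replicate 3, where the log2 fold change was 0.88, and 0.0800 to 0.116 without any one fostamatinib sample. Without a mean-variance trend, neither ABCA10 (0.0893) nor ABCA6 (0.167) was called. For ABCA12 it was 0.158 without DMSO replicate 2, 0.0918 without DMSO replicate 3 and 0.111 without fostamatinib replicate 1. ABCA3, the surfactant lipid transporter of lung, and ABCA4, the retinoid flippase of photoreceptors, had means of 11.0 and 6.7 reads with DMSO, overlapping groups and log2 fold changes of 0.38 and 0.06 that were not called. ABCA6, ABCA10 and ABCA5 follow each other on chromosome 17, with 5.3 kb between ABCA6 and ABCA10, and ABCA10 and ABCA5 overlap at their ends (3.8% of the exon bases of ABCA10 and 2.4% of those of ABCA5, on the same strand).

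Of the peroxisome and cobalamin members, ABCD3 and ABCD4 were called higher, and their fostamatinib samples all lay above the DMSO samples. Among all genes, 23.3% were called higher, and the groups did not overlap in 54.1%. So small a group cannot be set apart from those shares. ABCD3 (ENSG00000117528, chr1:94883945-94984222, plus strand), or PMP70, which brings branched fatty acids and bile acid precursors into peroxisomes, had 6.81, 6.80 and 6.99 log2 CPM with DMSO and 7.36, 7.43 and 7.44 log2 CPM with fostamatinib. It was 1.46-fold higher (0.55, SE 0.048, limma adjusted p = 8.09e-12). ABCD4, which releases cobalamin from lysosomes, rose by 0.20 (limma adjusted p = 0.0103, or 0.0567 without fostamatinib replicate 3).

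Among the mitochondrial and lysosomal members, ABCB6, ABCB8, ABCB9 and ABCB10 were not called. ABCB8, an inner membrane transporter linked to mitochondrial iron, had overlapping groups and a log2 fold change of 0.02 (95% interval from -0.12 to 0.17). ABCB10, which takes part in haem synthesis and biliverdin export, was the best expressed of them; its fostamatinib samples were all lower, with a log2 fold change of -0.14 that was not called (limma adjusted p = 0.0688). ABCB9, a lysosomal peptide transporter, was at 0.25 and ABCB6, a porphyrin transporter, at 0.07, both with overlapping groups. In GENCODE release 44, 54.6% of the exon bases of ABCB6 also lie in a readthrough gene model on the same strand. Of those of ABCB9, 20.7% lie opposite another gene. Whether the authors' counting used these models was not checked, so the counts of ABCB6 are uncertain.

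ABCC6 (ENSG00000091262, chr16:16243422-16317379, minus strand) showed the largest change among the members with at least 50 reads. Expressed mainly in liver, it mediates release of ATP, a source of the mineralization inhibitor pyrophosphate, and its loss causes pseudoxanthoma elasticum. Values were 5.55, 5.55 and 5.35 log2 CPM with DMSO and 6.59, 6.64 and 6.71 log2 CPM with fostamatinib. All fostamatinib samples were above all DMSO samples, by 2.24-fold (1.16, SE 0.057, limma adjusted p = 1.40e-18), and mean reads went from 654.7 to 1377. Its near-identical pseudogenes, which are not members, were measured as well. ABCC6P1 had 344, 357 and 406 reads with DMSO and 775, 807 and 756 reads with fostamatinib (1.17, SE 0.066, limma adjusted p = 5.60e-17), and ABCC6P2 had 18, 34 and 39 reads and then 50, 59 and 45 reads (0.90, SE 0.227, limma adjusted p = 1.18e-03). Of the 50-base stretches in ABCC6 transcripts, 19.6% occur in at least 1 of these pseudogenes, as do 34.1% of those of ABCC6P1 and 67.6% of those of ABCC6P2 in ABCC6, so how reads were divided among the 3 is uncertain. ABCC6 lies 6.3 kb from ABCC1 on chromosome 16, on the opposite strand, and the neighbours moved in opposite directions. CFTR, the chloride channel of the family, had 11, 15 and 10 reads and then 17, 20 and 18 reads. Every fostamatinib sample was higher, but the log2 fold change of 0.70 was not called (limma adjusted p = 0.0724), although it was called with an adjusted p-value of 0.0158 without a mean-variance trend and 0.0415 among the genes with at least 10 reads in every sample.

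The soluble members, which bind ribosomes, included the most highly expressed genes of the family. Of these 4 members, 2 were called lower and 1 higher, beside 24.5% and 23.3% of all genes. A group of 4 is too small to be set apart from those shares. ABCE1 (ENSG00000164163, chr4:146019440-146050676, plus strand), the ATPase that splits ribosomes after termination, had 7.16, 7.01 and 7.19 log2 CPM with DMSO and 6.41, 6.46 and 6.47 log2 CPM with fostamatinib. Its fostamatinib samples were all lower, by 1.60-fold (-0.67, SE 0.049, limma adjusted p = 5.49e-14). ABCF2 (ENSG00000033050, chr7:150908570-150924291, minus strand) had 7.02, 7.08 and 7.04 log2 CPM and then 6.51, 6.52 and 6.50 log2 CPM. Both groups were narrow and apart, 1.45-fold (-0.54, SE 0.045, limma adjusted p = 2.96e-12), and 37.1% of its exon bases also belong to a readthrough gene model on the same strand. ABCF3 rose by 0.25 (limma adjusted p = 1.16e-04), and ABCF1, a factor of translation initiation, had overlapping groups and a log2 fold change of -0.07 (limma adjusted p = 0.212).

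Levels of different genes were compared as RPKM, the CPM divided by the length of the exons in kilobases. With DMSO, ABCF1 (26.9), ABCF2 (25.6) and ABCE1 (22.3) led, followed by ABCD3 (15.2) and ABCF3 (13.8). ABCF1 and ABCF2 overlapped in their samples, while each further step down to ABCB10 (8.72) was without overlap. The best expressed transporters of the plasma membrane were ABCC1 (7.72) and ABCC3 (7.29), which overlapped each other, then ABCC6 (6.48) and ABCA1 (6.18), which also overlapped. ABCC4 (4.48) and ABCC2 (4.24) did not differ beyond their spread, and ABCB1 was at 1.70. ABCG2, at 0.0726, was in 28th place of 33, and ABCA6, at 0.0116, was last.

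With fostamatinib this order changed. ABCC6 went from 9th to 5th place, at 14.5 RPKM, and ABCC2 from 13th to 9th, at 7.69. ABCC4 went from 12th to 20th place, at 3.20, and ABCC3, at 11.9, stood above ABCC1, at 6.51. ABCB1 was at 0.928, in 22nd place.

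**Figure D3:**
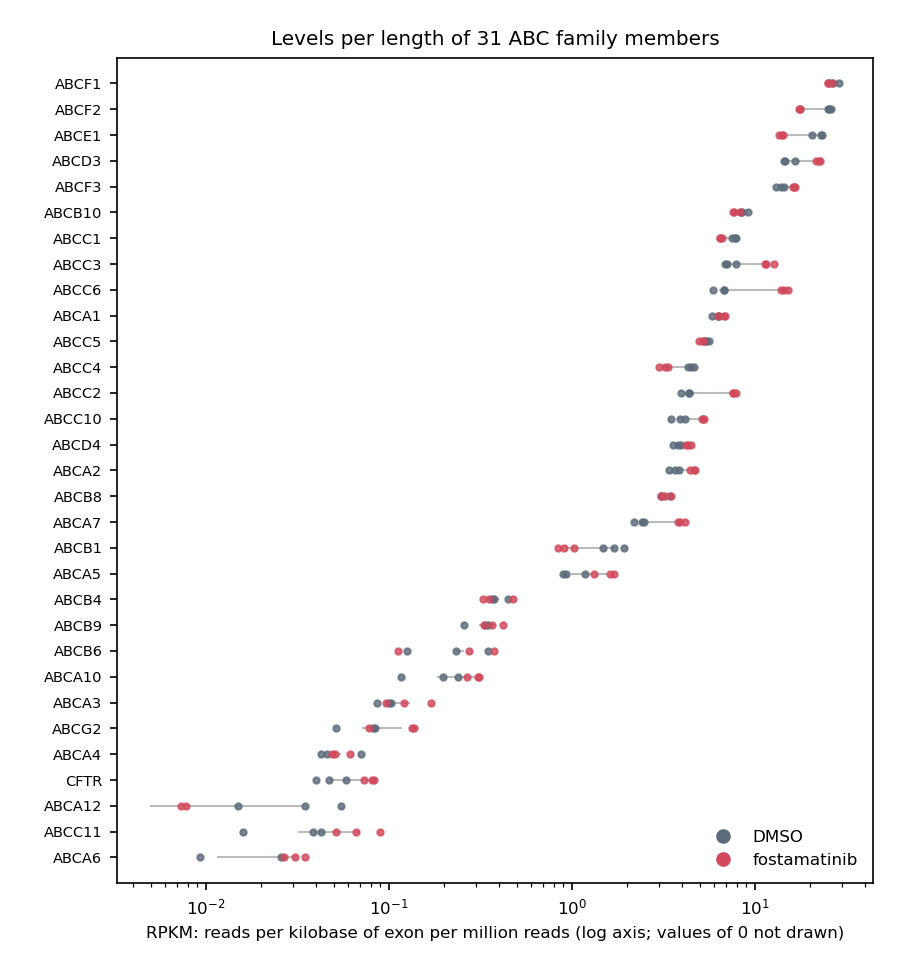
Level of 31 members in RPKM, reads per kilobase of exon scaled to library size (log axis), with the 3 DMSO and 3 fostamatinib samples as points and a line joining the group means. Genes are ordered by their DMSO mean, from ABCF1 at 26.9 to ABCA6 at 0.0116, and the DMSO and fostamatinib points of ABCC6, ABCC2, ABCA7, ABCC3, ABCE1 and ABCB1 lie apart.

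Shifts between members were also followed within each sample, as the difference of their log2 CPM values. These differences are not divided by exon length, unlike the RPKM values above. Pairs were chosen after the fold changes were known, and 4 were examined. ABCC3 exceeded ABCC4 by 1.04, 0.81 and 0.72 with DMSO and by 1.92, 2.00 and 2.24 with fostamatinib, a change of the mean from 0.86 to 2.05. ABCC2 exceeded ABCB1 by 1.65, 1.31 and 1.85 and then by 3.16, 3.35 and 3.50, and its mean difference from ABCB4 went from 3.43 to 4.34. ABCC6 was below ABCC1 in the DMSO samples (-0.48, -0.53 and -0.76) and above it in the fostamatinib samples (0.73, 0.82 and 0.89). In each of the 4 pairs the groups did not overlap, and the exact two-sided permutation p was 0.10, the smallest that 3 samples against 3 can give. Except for ABCC2 and ABCB4, this outcome was fixed by the single genes. The first member was higher and the second lower in every fostamatinib sample. The p-values therefore add no support to the changes of the single genes.

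Summed by role, the 8 drug efflux members came to 30.6 ± 0.574 RPKM with DMSO and 33.1 ± 0.389 with fostamatinib (SD, n = 3), which was 16.8% and 17.2% of the family's total. The 2 bile members went from 4.63 ± 0.274 to 8.08 ± 0.247, and the 9 lipid members from 13.6 ± 0.115 to 17.3 ± 0.144. For each of these 3 sums, every fostamatinib sample was above every DMSO sample. ABCC2 alone gave 4.24 and 7.69 of the bile sums. Within the drug efflux sum the rises of ABCC3 and ABCC10 stood beside the falls of ABCB1, ABCC4 and ABCC1. Peroxisome and cobalamin members went from 22.5 ± 0.934 to 30.6 ± 0.617, and the mitochondrial and lysosomal members from 16.4 ± 0.344 to 15.7 ± 0.326. The soluble members went from 88.6 ± 0.870 to 73.5 ± 0.975, or from 48.5% to 38.1% of the family's total of 182.8 and 192.8.

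**Figure D4:**
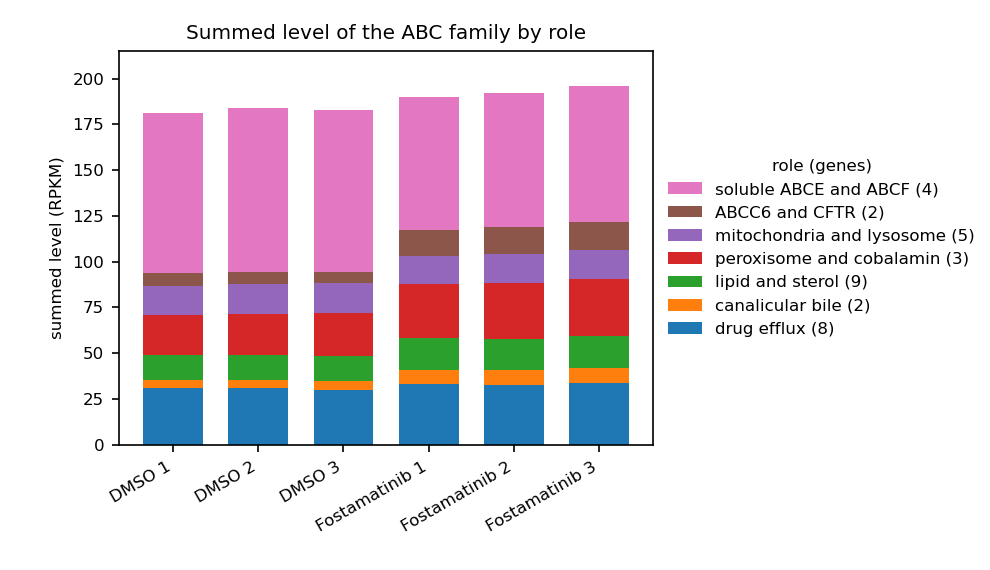
Summed level of the 33 members (RPKM, y axis from 0) in each of the 6 samples, stacked by role with the number of genes in each. The soluble share is smaller in the 3 fostamatinib samples (38.1% on average, 48.5% with DMSO), and the lipid, bile, peroxisome and ABCC6 layers are thicker.

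Other genes of bile and sterol handling were read from lists. Of 16 regulators of transporter genes, 14 were measured, of which 10 were called higher and 3 lower (71.4% and 21.4%, beside 23.3% and 24.5% of all genes), with a median log2 fold change of 0.37. The changes of at least 1 were those of HNF4A, the master regulator of hepatocyte genes (1.02, limma adjusted p = 8.40e-22), of NR0B2, the bile acid-induced repressor SHP (1.42, limma adjusted p = 6.92e-03, from a mean of 4.7 to 12.7 reads), and of NR1H4, the bile acid receptor FXR (-1.36, limma adjusted p = 1.64e-08). AHR, whose core site was searched above, fell by 0.46 (limma adjusted p = 1.96e-08). NR1I2 and NR1I3 were not analysed here.

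Of 17 partner transporters and lipoprotein receptors, 11 were measured, with 5 called higher and 2 lower (45.5% and 18.2%, beside 23.3% and 24.5% of all genes) and a median of 0.33. PDZK1, a scaffold that anchors ABCC2 and other apical transporters, rose most (2.88, limma adjusted p = 6.59e-16), from 21, 30 and 22 reads to 132, 219 and 166 reads. SLCO2B1, an uptake carrier of organic anions, rose by 2.48 (limma adjusted p = 1.33e-22), and SLC47A1, the canalicular cation exporter MATE1, by 1.33 (limma adjusted p = 4.28e-10). SLC10A1, SLCO1B1, SLCO1B3, SLC22A7, SLC51A and MTTP were not analysed here.

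The 8 targets of the liver X receptors outside the family, a list that shares NR1H3 with the regulators, were all measured. Of these 8, 4 were called higher and 2 lower (beside 23.3% and 24.5% of all genes), with a median of 0.11 and none changed by as much as 1. APOE, the apolipoprotein, rose by 0.83 and SMPDL3A by 0.91, while SREBF1, the activator of fatty acid synthesis genes, fell by 0.32. TAP1 and TAP2, family genes whose symbols the rule does not match and which load peptides for antigen presentation, both fell, by 0.37 (limma adjusted p = 5.65e-03) and 0.61 (limma adjusted p = 0.0114). The samples of TAP2 overlapped between the groups.

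**Figure D5:**
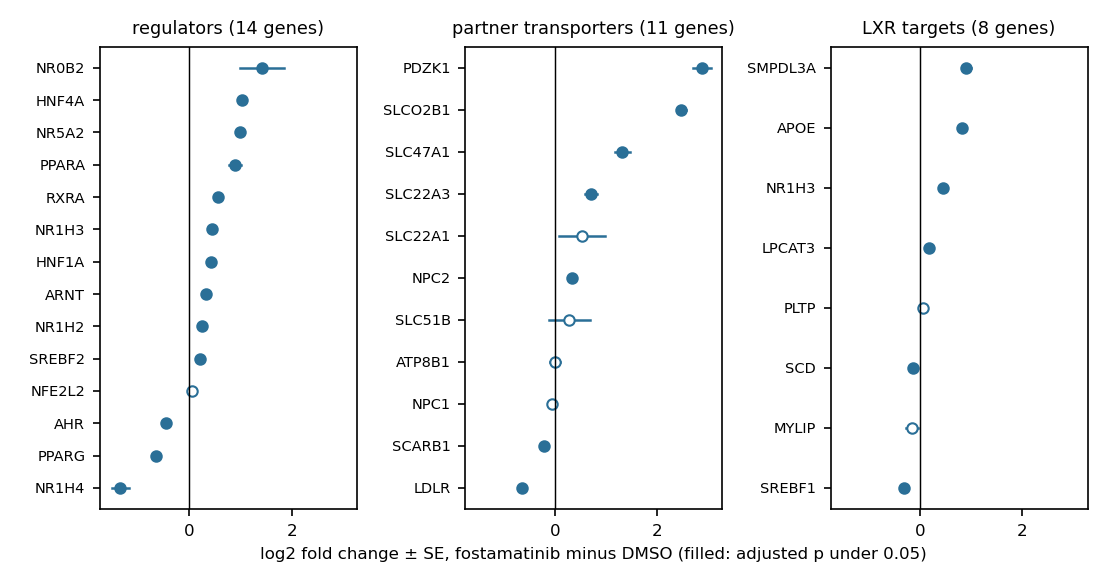
Log2 fold change ± SE (fostamatinib minus DMSO) of measured genes in 3 lists outside the family: 14 regulators, 11 partner transporters and 8 liver X receptor (LXR) targets. Filled points have an adjusted p-value under 0.05 in limma; PDZK1 (2.88) and SLCO2B1 (2.48) lie farthest to the right and NR1H4 (-1.36) farthest to the left.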

How the data were processed

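RNA-seq of 6 samples of Huh7-R cells was used, 3 treated with fostamatinib and 3 with DMSO, grouped by the sample labels. Per the methods of the authors, HISAT aligned the reads to hg19 and featureCounts assigned them to GENCODE genes. A gene stayed in when at least 2 of 3 samples in one group or the other had 5 or more reads, and TMM set the scaling (tool versions are not given in the sources used here). Each deposited value is a log2 CPM, with 0.5 added to the count before the log2 was taken. The library kit keeps strand, but the strand setting of the counting is not given in the sources used here.

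Reads were recovered from the deposited values (100.0% within 0.05 of a whole number) and gave the depths, the levels per length and the alternatives; reads on filtered genes are not included. Of 16311 rows, 6 repeated a gene. limma 3.58.1 (R 4.3.3; lmFit, eBayes with a mean-variance trend) was fitted to 16305 genes with a term for treatment, p-values were adjusted by Benjamini-Hochberg over all genes, and the script was tested on simulated data. Exon lengths, overlaps and positions are from GENCODE release 44 mapped to GRCh37, the same build as hg19. The authors counted with an earlier GENCODE release, so gene models may differ from those used in the counting. Tables and figures were made with Python 3.11.15, pandas 2.3.3, numpy 2.4.6 and matplotlib 3.10.9. With 3 samples per group, an exact permutation test cannot go below 0.10. Depth sets the precision: members with few reads have large standard errors.

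The members, role lists and other lists were chosen with earlier results of these data known. Of the members, 31 are named, and some results, values of 2 members among them, are not reported here; counts and sums over the family include them. Values in every sample are given for ABCB1, ABCC1, ABCC2, ABCC3, ABCC4, ABCG2, ABCB4 and ABCA1, and for further members with an adjusted p-value under 0.05, an absolute log2 fold change of at least 0.5 and a mean of at least 50 reads in a group; reads of other members stand beside results that rest on few reads. List genes are named where they are called with a change of at least 1, and AHR, APOE, SMPDL3A and SREBF1 were named after their values were seen. Alternatives were limma-voom on the recovered reads, no mean-variance trend, other scalings (RLE, library size alone), a pseudocount of 2 reads, stricter read filters, the replicate number as a block, each sample left out, and a limit of 1 expected false positive.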

Additional observations from a re-analysis of the deposited data

How the results depend on the processing

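Of the 18 named members that were called, 14 were called under each alternative that could test them and none changed direction; the other 4, ABCA12, ABCA10, ABCA6 and ABCD4, each lost the call under at least 1. Called lipid and sterol members numbered 5 higher, but 3 without a mean-variance trend, 3 at 1 expected false positive and 3 to 5 with single samples left out. The 1 called lower (ABCA12) went to 0 under both read filters, which remove it, and at 1 expected false positive, and was 0 to 1 with samples left out. Outside the drug efflux, bile and lipid groups, 5 were called higher, 3 at 1 expected false positive and 3 to 5 with samples left out (3 without fostamatinib replicate 3). Drug efflux calls stayed at 2 higher and 3 lower and bile calls at 1 and 0 with samples left out, and the family's at 10 to 12 and 5 to 6. The direction turned in 4 named members that were not called: with single samples left out, values ran from -0.21 to 0.061 for ABCB4, -0.073 to 0.27 for ABCA4, -0.023 to 0.074 for ABCB8 and -0.31 to 0.56 for ABCB6. The cause was not tested.

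Replicate numbers did not pair the samples: the correlations of deviations were 0.036, -0.021 and 0.037. Under a replicate block, 13 members were called higher and 6 lower. In that fit the variance of a gene came almost wholly from the trend over genes. Its median degrees of freedom were 32610, against 33.9 in the main fit. Its p-values therefore hardly measure the spread of single genes, and it is a weak check. Depth limits the 10 members under 50 reads.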
